A study of Rattus norvegicus with 9 samples.

Results

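The genes described here encode 9 proteins that hold mesenchymal cells to one another or to passing leukocytes: the immunoglobulin-type adhesion molecules Vcam1, Icam1, Ncam1 and Alcam, and the cadherins Cdh2, Cdh4, Cdh11, Cdh13 and Cdh15. They were taken by gene symbol from a table of 19085 rat genes, in which each of the 9 symbols stood on 1 gene. Of the 9, 8 had enough counts for a test. RNA came from first-passage osteoblasts of newborn male Sprague–Dawley rats, released from the calvaria by collagenase, although the sample labels give the knee as the tissue. All 3 groups spent 7 days in osteogenic induction medium with serum, β-glycerophosphate, ascorbic acid and dexamethasone. The control group received nothing else, the thrombin group also received thrombin at 20 U/mL, and the PD03 group had the same dose of thrombin together with the MEK inhibitor PD0325901, abbreviated PD03, at 0.1 μM (a protocol in the labels writes the same number in mM). Each group had 3 libraries. No group received PD03 without thrombin. The paper describes 3 independent samples per group, but neither it nor the labels say whether these came from separate animals. The p-values thus measure the spread between these libraries, which may be technical.

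Cadherins are calcium-dependent receptors that pair with like molecules on a neighbouring cell, and the classical ones are tied to the actin skeleton through β-catenin and α-catenin. Cdh2 (N-cadherin) and Cdh11 (osteoblast cadherin) are the classical cadherins known from bone-forming cells, Cdh4 (R-cadherin) is best known from retina and brain, Cdh15 (M-cadherin) from skeletal myoblasts, and Cdh13 (T-cadherin) is anchored in the membrane by a lipid, lacks the tail that binds catenins and also binds adiponectin. Vcam1 and Icam1 are docking molecules for leukocyte integrins and are well known as genes that inflammatory cytokines switch on through NF-κB, whereas Ncam1 pairs with itself and Alcam pairs with itself and with CD6 on lymphocytes.

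Total counts were 15447832 to 19841468 per library. Col1a1 alone took 4.18% to 5.05% of the counts in the control and thrombin libraries and 6.78% to 6.96% in the PD03 libraries, so the scaling of the PD03 group matters for every comparison with it. Of 10 osteoblast markers, 7 were tested. They did not move as one: in the control, thrombin and PD03 groups the regulator Runx2 averaged 42.8, 51.1 and 32.1 CPM and the matrix protein Spp1 63.6, 185 and 53.1 CPM, whereas the phosphatase Alpl averaged 1.67, 0.345 and 3.10 CPM and the collagen Col1a2 16856, 14508 and 24480 CPM. The late markers Bglap (1 to 5 counts per library) and Ibsp (0 to 1) were close to 0. The summed level of 6 endothelial markers in the table was 8.00 to 15.1 CPM per library, mostly Tek, and Pecam1 had 1 to 8 counts. The 7 myeloid markers summed to 20.4 to 23.7 CPM in the control, 29.2 to 32.7 CPM in the thrombin and 17.6 to 19.1 CPM in the PD03 libraries. Nearly all of that was Cd14 (20.4, 29.3 and 15.7 CPM on average), while the leukocyte gene Ptprc had 0 to 6 counts. Chondrocyte markers summed to 68.6 to 102 CPM, mostly Col2a1, and pericyte or smooth muscle markers to 1045 to 2002 CPM. Library 1 of each group stood farther from the other 2 than these did from each other (chi-square of the counts per degree of freedom 3.06 to 4.03 against 1.82 to 2.15). Libraries 2 and 3 alone gave the same number of calls among the 8 genes in each comparison. A change in bulk RNA cannot tell fewer cells of a type from less RNA per cell. CPM below is a gene's TMM-scaled CPM value, a count relative to library size, and serves to compare libraries, while the deposited FPKM, which is also per length, serves to compare genes. A gene was called when its adjusted p-value (edgeR's quasi-likelihood test, adjusted over 13256 genes) was under 0.05 and its log2 fold change was beyond 0.58 in either direction.

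Vcam1 and Icam1 are usually named together as cytokine-driven genes, and with thrombin Vcam1 was called lower here while Icam1 was not. The stretches of 250 bases before their RefSeq gene starts (build GRCr8, printed 5′ to 3′ along the gene) are shown to let both be read beside their values. Vcam1 lies at chr2:206742784-206743033 on the minus strand and Icam1 at chr8:27829595-27829844 on the plus strand. Capitals mark matches, on either strand, to 6 short motifs: GGGNTTNCC and GGAANTTCC, which are forms of the NF-κB site, TGANTCA of AP-1, TATAAA of the TATA box, GGGCGG of the GC box and CCGGAA of Ets factors.
Vcam1: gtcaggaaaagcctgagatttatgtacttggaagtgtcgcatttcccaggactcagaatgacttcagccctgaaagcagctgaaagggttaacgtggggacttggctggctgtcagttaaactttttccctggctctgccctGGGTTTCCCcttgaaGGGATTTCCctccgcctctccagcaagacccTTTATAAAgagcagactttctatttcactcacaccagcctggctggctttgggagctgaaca
Icam1: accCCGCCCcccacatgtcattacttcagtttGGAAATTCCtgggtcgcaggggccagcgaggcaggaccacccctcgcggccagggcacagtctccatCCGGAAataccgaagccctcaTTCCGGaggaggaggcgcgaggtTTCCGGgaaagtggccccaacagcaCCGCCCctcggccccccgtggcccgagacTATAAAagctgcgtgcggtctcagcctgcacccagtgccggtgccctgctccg

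The Vcam1 stretch held GGGNTTNCC at 2 places, 108 to 100 and 93 to 85 bases before the start, and TATAAA on both strands in overlapping positions between 62 and 55 bases before it. The Icam1 stretch held GGAANTTCC once, 218 to 210 bases before the start, TATAAA at 53 to 48, GGGCGG at 2 places and CCGGAA at 3. Of 33469 promoter stretches of the same length, 4.04% held GGGNTTNCC, 0.669% held GGAANTTCC, 6.34% held TGANTCA, 12.9% held TATAAA, 30.5% held GGGCGG and 12.6% held CCGGAA. The forms of the NF-κB site were chosen after these sequences were seen. The Alcam stretch matched none of the 6 motifs and the Cdh15 stretch matched only GGGCGG, at 5 places. A match is a run of letters and not a shown binding site. Promoters were found for 4 of the 9 genes, and those of Ncam1, Cdh2, Cdh4, Cdh11 and Cdh13 are not shown.

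Per length, the adhesion genes of control osteoblasts fell into a high, a middle and a low tier. Alcam led with 58.1 ± 1.72 FPKM (SD, n = 3), followed by Cdh11 with 54.8 ± 0.793 FPKM and Icam1 with 52.3 ± 2.99 FPKM. The libraries of Cdh11 and Icam1 overlapped, and those of Alcam and Cdh11 did not. Cdh2 stood at 29.3 ± 0.573 FPKM and Ncam1 at 11.8 ± 0.305 FPKM. Cdh13 (6.66 ± 0.459 FPKM) and Vcam1 (6.65 ± 0.635 FPKM) could not be ranked against each other. Cdh15 (0.0709 ± 0.0290 FPKM) and Cdh4 (at most 0.0103 FPKM in any control library) were hardly seen.

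The order differed by group. In the thrombin group Icam1 (48.2 ± 1.09 FPKM) and Cdh11 (48.4 ± 0.423 FPKM) overlapped at the top, with Alcam below them at 39.3 ± 1.00 FPKM. Next came Cdh2 at 23.4 ± 0.904 FPKM, Ncam1 at 18.6 ± 0.795 FPKM, Cdh13 at 6.13 ± 0.363 FPKM and Vcam1 at 2.67 ± 0.244 FPKM, without overlap between neighbours. In the PD03 group Cdh11 stood first at 74.5 ± 1.96 FPKM, above Alcam (60.0 ± 3.05 FPKM) and Icam1 (51.4 ± 1.53 FPKM). Cdh13 there reached 12.8 ± 0.514 FPKM, just under the 14.4 ± 0.876 FPKM of Ncam1, and Vcam1 stayed last of the well-measured genes at 4.34 ± 0.395 FPKM.

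**Figure D1:**
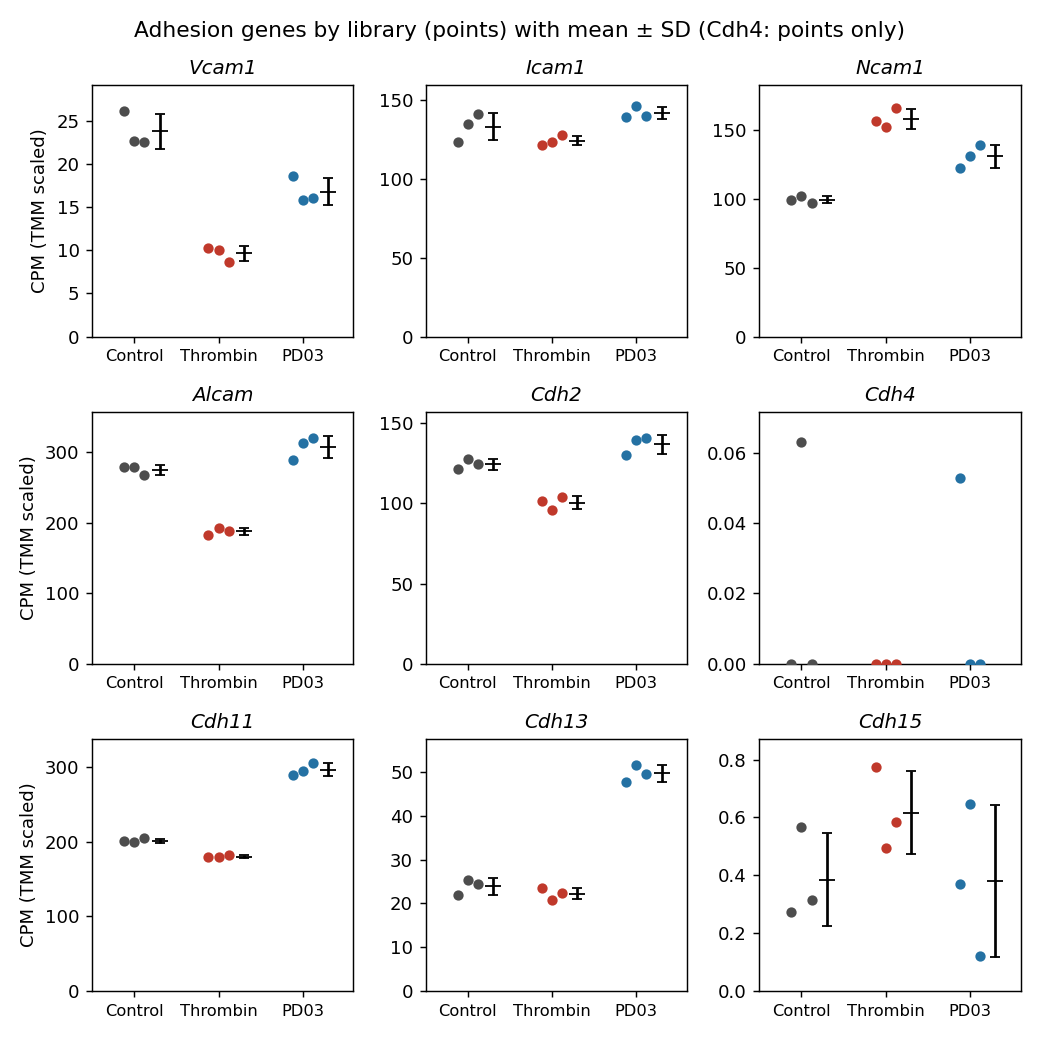
Levels of the 9 adhesion genes in CPM after TMM scaling (vertical axes from 0, each panel with its own range) in 3 control, 3 thrombin and 3 PD03 libraries. Points are libraries and the bars beside them the mean ± SD. Vcam1, Alcam and Cdh2 were lowest in all 3 thrombin libraries, Ncam1 was highest there, and Cdh11 and Cdh13 stood apart in the PD03 libraries, whereas the 2 low panels, Cdh4 and Cdh15, rest on 0 to 1 and 2 to 13 counts per library.

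The comparison of the thrombin and control groups asks what thrombin did to the adhesion genes of differentiating osteoblasts. Of the 8 tested genes, Ncam1 was called higher and Vcam1 was called lower, where 2.62% of all tested genes were called higher and 5.44% lower. Without the fold threshold, Alcam, Cdh2 and Cdh11 were also lower, which made 5 of 8 with an adjusted p-value under 0.05, and 28.7% of all tested genes passed that rule, 14.1% as higher and 14.6% as lower. The same 5 genes had thrombin and control libraries that did not overlap, as had 40.3% of all tested genes. The median log2 fold change of the 8 genes was -0.13, beside -0.0060 over all tested genes.

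The comparison of PD03 with thrombin asks what blocking MEK, a kinase that acts directly above Erk, did in the presence of thrombin, and in it Vcam1, Alcam, Cdh11 and Cdh13 were called higher, 4 of 8 tested genes. Of all tested genes, 9.61% were called higher and 6.31% lower. With the adjusted p-value alone 7 of the 8 passed (all but Cdh15), of which Ncam1 was lower, and 49.8% of all tested genes passed that rule, 25.3% as higher and 24.5% as lower. The same 7 genes had libraries that did not overlap, as had 55.5% of all tested genes. The median log2 fold change was 0.58, beside 0.011 over all tested genes. Library totals in place of TMM moved the share of called genes that were higher from 60.4% to 46.5% over all genes, and the same 4 genes stayed called, while the adjusted p of Icam1 went to 0.083. The thrombin libraries enter this comparison and the previous one, so the values of both are given side by side and their opposition is not counted as a result.

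When PD03 was set against control, Cdh13 was called higher, where 4.9% of all tested genes were called higher and 4.07% lower. With the adjusted p-value alone 6 of the 8 passed, 5 of them higher in the PD03 group and Vcam1 lower, where 39.9% of all tested genes passed, 19.7% as higher and 20.2% as lower. The libraries did not overlap for 6 of the 8, and for 47.8% of all tested genes. The median log2 fold change of the 8 genes was 0.15, beside -0.0039 over all tested genes. Library totals moved that median of all genes to -0.12, and the share of called genes that were higher from 54.6% to 34.1%, so small differences from control depend on the scaling.

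**Figure D2:**
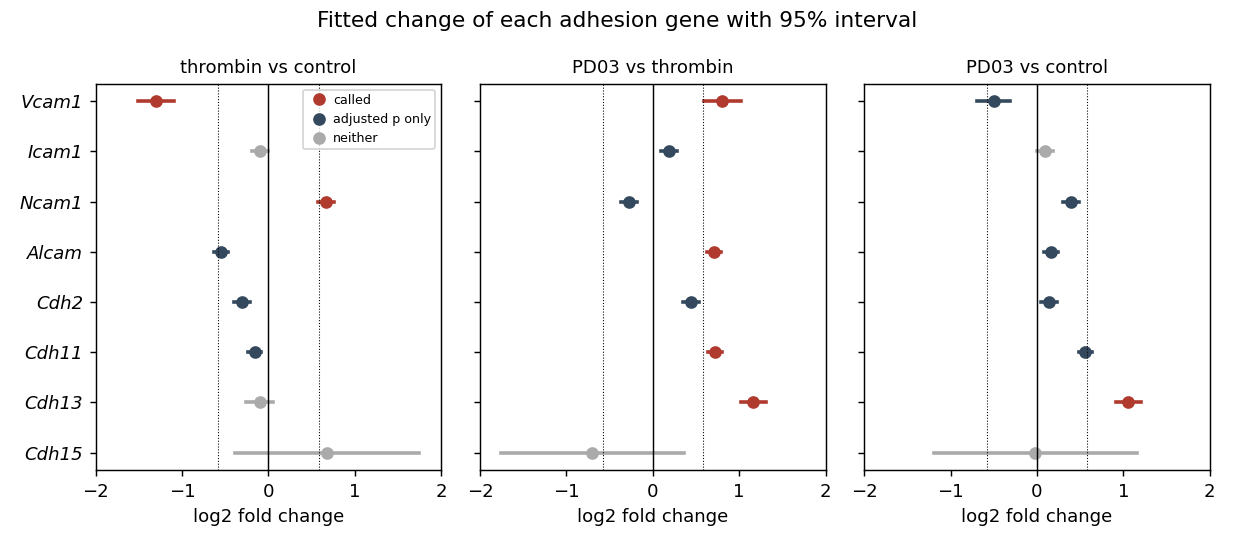
Fitted log2 fold changes (horizontal axes) of the 8 tested adhesion genes in the 3 comparisons, with 95% intervals as bars and dotted lines at the fold threshold of 0.58. Red marks called genes, dark blue an adjusted p-value under 0.05 alone, and grey neither. Vcam1 has the lowest value with thrombin (-1.30) and Cdh13 the highest with PD03 against thrombin (1.16), while the bars of Cdh15 are the widest.

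Vcam1 (ENSRNOG00000014333), the ligand of the integrin α4β1, had the largest fall of the 8 with thrombin. Its levels were 26.1, 22.7 and 22.5 CPM in the control libraries, 10.3, 10.0 and 8.68 CPM in the thrombin libraries, and 18.6, 15.9 and 16.0 CPM in the PD03 libraries. The 3 groups did not overlap, and the PD03 libraries lay between the other 2 groups. Thrombin lowered Vcam1 2.47-fold with a log2 fold change of -1.30, a standard error (SE) of 0.10 and an adjusted p of 4.7e-14. Against thrombin, Vcam1 was 1.75-fold higher with PD03 (log2 fold change 0.80, SE 0.11, adjusted p = 2.0e-08), but with the change tested against the threshold of 0.58 itself its adjusted p was 0.062. Against control it remained lower (log2 fold change -0.50, SE 0.094, adjusted p = 3.1e-05), short of the fold threshold. That call was gained without PD03 replicate 1, the library with the most Vcam1 in its group (-0.58), with library totals (-0.62) and from FPKM with 0.1 added (-0.61).

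Icam1 (ENSRNOG00000020679), the ligand of the β2 integrins, moved little. It stood at 124, 135 and 141 CPM in the control libraries, 122, 124 and 128 CPM in the thrombin libraries and 140, 147 and 140 CPM in the PD03 libraries. The control libraries overlapped both other groups. The log2 fold change with thrombin was -0.098, with a 95% interval of -0.19 to -0.0048 and an adjusted p of 0.11, or 0.011 from libraries 2 and 3 alone. PD03 against thrombin gave 0.19 (95% interval 0.098 to 0.28, adjusted p = 5.6e-04), and PD03 against control 0.093 (adjusted p = 0.11), which turned to -0.023 with library totals. The endothelial markers summed to 13.0 to 15.1 CPM in the PD03 libraries. The control (9.28 to 9.53 CPM) and thrombin libraries (8.00 to 10.8 CPM) had less. Most of this was Tek, at 106 to 109 counts in control, 100 to 121 with thrombin and 151 to 172 with PD03. Kdr was also highest with PD03, at 29 to 33 counts against 9 to 10 in control and 4 to 19 with thrombin. The part of the endothelial markers in the values of Vcam1 and Icam1 was not tested. The intervals for Icam1 lay inside the fold threshold in all 3 comparisons.

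The ratio of Vcam1 to Icam1, from the FPKM of each library, sets these genes side by side without any scaling between libraries. It was 0.128 ± 0.0197 in the control group, 0.0554 ± 0.00624 in the thrombin group and 0.0845 ± 0.00927 in the PD03 group. Every thrombin library was below every library of the other groups. The exact permutation test (two-sided) gave p = 0.10 for each pair of groups, which is the smallest value that 3 libraries against 3 allow. Any groups without overlap give it, and the ratio only restates the changes of both genes given above.

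Alcam (ENSRNOG00000001989), known from mesenchymal progenitors and activated leukocytes, was the most abundant of the 4 immunoglobulin-type genes in the control group. Its levels were 278, 278 and 267 CPM in the control libraries, 183, 193 and 188 CPM with thrombin, and 289, 313 and 319 CPM with PD03. No groups overlapped. With thrombin Alcam was 1.46-fold lower (log2 fold change -0.55, SE 0.040, adjusted p = 7.9e-15), a fall just inside the fold threshold and therefore not called. PD03 against thrombin gave 1.63-fold (log2 fold change 0.71, SE 0.040, adjusted p = 7.6e-19). Against control the PD03 libraries were 1.12-fold higher (log2 fold change 0.16, adjusted p = 8.6e-04), and this difference was 0.045 on the log2 scale with library totals.

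Ncam1 (ENSRNOG00000031890), known from nerve, muscle and early bone condensations, was the one well-measured gene of the set that thrombin raised. It had 99.0, 102 and 97.0 CPM in the control libraries, 156, 152 and 165 CPM in the thrombin libraries and 122, 131 and 139 CPM in the PD03 libraries. The 3 groups were apart, with the PD03 libraries in the middle. The rise with thrombin was 1.59-fold (log2 fold change 0.67, SE 0.047, adjusted p = 2.6e-15), but tested against the threshold of 0.58 itself its adjusted p was 0.22. PD03 lowered it against thrombin by a log2 fold change of -0.27 (SE 0.046, adjusted p = 3.7e-06), and it remained above control by 0.40 (SE 0.048, adjusted p = 5.4e-09).

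The ratio of Ncam1 to Alcam by FPKM was 0.204 ± 0.00296 in the control group, 0.473 ± 0.0272 in the thrombin group and 0.239 ± 0.00461 in the PD03 group. Thrombin libraries held 0.443 to 0.496 and no other library was above 0.245 (exact permutation p = 0.10 for each pair of groups, the smallest possible). Groups without overlap always give that value. The ratio restates the changes of both genes in the same libraries and is not further support for them. Ncam1 made up 9.18% ± 0.236 of the summed FPKM of the 4 immunoglobulin-type genes in the control group, 17.1% ± 0.606 with thrombin and 10.7% to 11.5% in the PD03 libraries. The sum itself was 129 ± 0.870 FPKM, 109 ± 1.77 FPKM and 130 ± 4.23 FPKM. The control and PD03 libraries overlapped in that sum (exact permutation p = 0.70), which is not scaled by TMM. By TMM-scaled CPM, Alcam and Ncam1 were higher in the PD03 than in the control libraries without overlap, Vcam1 was lower and Icam1 overlapped. By FPKM, the scale of the sum, Ncam1 was higher and Vcam1 lower in the PD03 libraries without overlap, while Alcam and Icam1 overlapped. The overlap of the sum is therefore not a return of each of these genes to its control level.

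Among the cadherins, Cdh11 (ENSRNOG00000013481) was the most abundant in every library. It stood at 200.2, 199 and 204 CPM in the control libraries, 179, 179 and 182 CPM with thrombin and 289, 294 and 306 CPM with PD03. Thrombin libraries were slightly below the control libraries, without overlap, and the PD03 libraries far above both. The fall with thrombin was small (log2 fold change -0.16, SE 0.039, adjusted p = 0.0011). PD03 raised Cdh11 1.65-fold over thrombin (log2 fold change 0.72, SE 0.038, adjusted p = 7.4e-20). Over control the factor was 1.47 (log2 fold change 0.56, SE 0.038, adjusted p = 4.8e-16), just inside the fold threshold.

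Cdh2 (ENSRNOG00000015602) differed less than Cdh11 in both comparisons with PD03, and more with thrombin. Its values were 121, 128 and 124 CPM in the control libraries, 102, 96.1 and 104 CPM in the thrombin libraries and 130, 140 and 141 CPM in the PD03 libraries. The log2 fold change was -0.31 with thrombin (SE 0.046, adjusted p = 9.4e-07) and 0.45 with PD03 against thrombin (SE 0.046, adjusted p = 5.7e-11), neither past the fold threshold. PD03 stood above control by 0.14 (SE 0.045, adjusted p = 0.013), or 0.022 with library totals.

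Cdh13 (ENSRNOG00000014371) was raised by PD03 and showed no detectable change with thrombin alone. The control libraries had 21.8, 25.4 and 24.4 CPM, the thrombin libraries 23.4, 20.8 and 22.3 CPM, and the PD03 libraries 47.8, 51.7 and 49.5 CPM. Control and thrombin overlapped, and every PD03 library was far above both. The log2 fold change with thrombin was -0.10, with a 95% interval of -0.26 to 0.055 and an adjusted p of 0.36. PD03 raised Cdh13 2.24-fold over thrombin (log2 fold change 1.16, SE 0.072, adjusted p = 1.5e-17) and 2.08-fold over control (log2 fold change 1.06, SE 0.072, adjusted p = 5.0e-16). Cdh13 kept its call against both groups in all 24 alternatives, with log2 fold changes of 0.95 to 1.23 against thrombin. The summed level of 6 pericyte or smooth muscle markers, in which Acta2 and Pdgfrb were the highest, was also higher in the PD03 libraries (1955 to 2002 CPM) than in the control (1045 to 1163 CPM) and thrombin (1153 to 1198 CPM) libraries, with Acta2 at 626, 526 and 1456 CPM in the control, thrombin and PD03 groups. Pdgfrb was lowest with PD03 (308 CPM, against 394 and 503), and Rgs5 of that list had 0 to 9 counts. Whether these cells had a part in the rise of Cdh11 and Cdh13 was not tested.

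Cdh15 (ENSRNOG00000027954) had 5, 9 and 5 counts in the control libraries, 13, 9 and 10 with thrombin and 7, 10 and 2 with PD03, and the groups overlapped. A difference was not detectable at this depth: the log2 fold change with thrombin was 0.68 with a 95% interval of -0.38 to 1.74 (adjusted p = 0.37), and with PD03 against thrombin -0.70 with an interval of -1.76 to 0.37 (adjusted p = 0.28). The myoblast marker Myog had 0 to 3 counts per library, and the 8 myoblast markers in the table summed to 10.6 to 14.2 CPM, mostly Des and Tnnt3. Cdh4 (ENSRNOG00000052405) had 1 count in control replicate 2, 1 in PD03 replicate 1 and 0 in the other 7 libraries. It was left out of the test, and 3 counts over a group, the limit that a count of 0 allows, correspond to 0.057 CPM in the thrombin group, covering counting error only.

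The makeup of the cadherins thus differed between the groups. By FPKM, the 5 cadherins summed to 90.8 ± 0.558 in the control group, 78.1 ± 1.52 in the thrombin group and 117 ± 3.34 in the PD03 group, with no overlap. Cdh11 took 60.3% ± 0.994 of that sum in control, 62.1% ± 0.879 with thrombin and 63.6% ± 0.694 with PD03. The share of Cdh2 was 32.2% ± 0.568, 29.9% ± 0.581 and 25.4% ± 0.422, and that of Cdh13 was 7.34% ± 0.470, 7.85% ± 0.363 and 10.9% ± 0.351. The share of Cdh2 did not overlap between any groups, whereas the share of Cdh11 overlapped between thrombin and PD03 and that of Cdh13 between control and thrombin. The ratio of Cdh11 to Cdh2 was 1.87 ± 0.0622, 2.07 ± 0.0693 and 2.51 ± 0.0668. No libraries of different groups overlapped in this ratio (exact permutation p = 0.10 for each pair, the smallest possible and the value that absence of overlap always gives). It restates the changes of Cdh11 and Cdh2 given above.

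**Figure D3:**
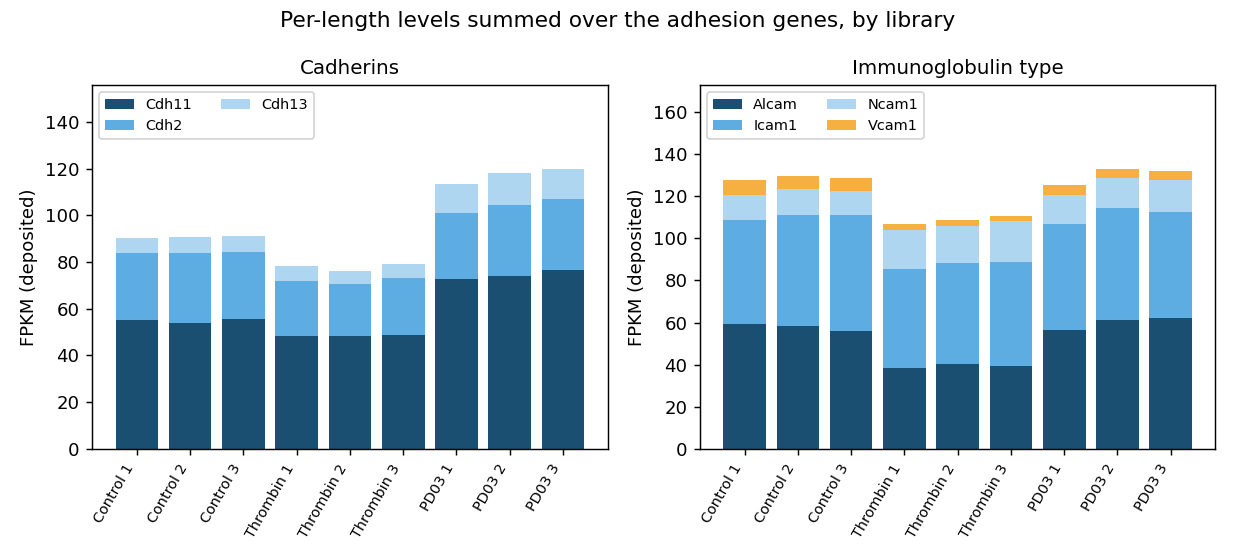
Deposited FPKM (vertical axes from 0) of the cadherins and of the immunoglobulin-type genes, stacked for each of the 9 libraries. Cdh4 and Cdh15 are too low to draw. The cadherin stacks are tallest in the PD03 libraries, where Cdh11 makes up 63.6% on average, and the immunoglobulin-type stacks are shortest in the thrombin libraries, where the share of Ncam1 is 17.1%.

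Other genes of cell adhesion were collected in 5 lists with 134 genes, of which 126 were in the table and 88 were tested. With thrombin 7 were called higher and 14 lower (23.9% of those tested), and the median log2 fold change was -0.032. With PD03 against thrombin 16 were called higher and 10 lower (29.5%, median 0.073), and with PD03 against control 9 were higher and 4 lower (14.8%, median 0.052). The shares of all tested genes called in either direction were 8.06%, 15.9% and 8.97%. Among genes with a mean count of at least 50, which leaves fewer genes tested, the number called with PD03 against thrombin was 12, where 1515 of 11030 genes were called. From FPKM with 1 added it was 10, where 1254 of 13256 genes were called.

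The list of other cadherins and protocadherins held many of these calls. With thrombin 4 of 28 tested were called higher and 10 lower (50%, beside 8.06% of all tested genes). With PD03 against thrombin 9 were called higher and 4 lower (46.4%, beside 15.9% of all). Cdh8, a classical cadherin known from brain, had 34, 35 and 36 counts in the control libraries, 2, 4 and 3 in the thrombin libraries and 78, 83 and 94 in the PD03 libraries. The thrombin libraries were far below all others, with a log2 fold change of -3.55 with thrombin (SE 0.41, adjusted p = 1.8e-09) and 4.82 with PD03 against thrombin (SE 0.35, adjusted p = 2.3e-15). Pcdh9 had log2 fold changes of -1.86 and 2.10, and Pcdh17 of -2.31 and 2.61, both from levels of at most 3.79 CPM on average in any group. These are protocadherins, cadherin relatives known mainly from the nervous system. The 8 glial or neuronal markers summed to 42.7 to 49.8 CPM in the control libraries, 60.3 to 65.0 CPM with thrombin and 99.3 to 104 CPM with PD03, nearly all of it Tubb3, while Sox10 had 0 to 13 counts. Their part in the levels of Ncam1 and of these cadherins was not tested.

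Among 18 tested catenins and linkers to the skeleton, 2 were called higher with thrombin (11.1%, beside 8.06% of all tested genes called in either direction). With PD03 against thrombin 1 was called higher and 3 lower (22.2%, beside 15.9% of all). Ctnnd2, a catenin known from neurons that binds the cadherin tail, stood at 1.52, 0.820 and 1.20 CPM in the control libraries, 7.91, 6.74 and 7.75 CPM with thrombin and 0.635, 1.29 and 0.673 CPM with PD03. It was 2.64 higher on the log2 scale with thrombin (SE 0.23, adjusted p = 2.0e-12) and the log2 fold change with PD03 against thrombin was -3.12 (SE 0.25, adjusted p = 3.6e-14). The desmosome protein Pkp1 had log2 fold changes of 1.18 (adjusted p = 5.4e-15) and -0.99 (adjusted p = 2.3e-13). Afdn, which links nectins to actin, was lower with PD03 against thrombin (log2 fold change -0.67, adjusted p = 3.6e-13). The general partners of the classical cadherins, picked out here after their values were seen, did not move alike. With PD03 against thrombin, Jup (plakoglobin) was called higher (log2 fold change 0.62, adjusted p = 4.7e-13), while the log2 fold change was -0.15 for Ctnnb1 (β-catenin), 0.088 for Ctnna1 (α-catenin) and 0.29 for Ctnnd1 (p120-catenin), inside the fold threshold.

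Of 20 other tested immunoglobulin-type genes, 1 was called higher and 2 lower with thrombin (15%, beside 8.06% of all tested genes). PD03 against thrombin gave 4 higher and 1 lower (25%, beside 15.9% of all). Cadm3, a synaptic adhesion molecule, averaged 15.6 ± 2.12 CPM in the control group, 7.76 ± 0.438 CPM with thrombin and 14.8 ± 0.641 CPM with PD03, 2.01-fold lower with thrombin (adjusted p = 1.9e-09) and 1.91-fold higher with PD03 against thrombin (adjusted p = 5.1e-09). Cntn1, a lipid-anchored contactin, had log2 fold changes of -0.82 (adjusted p = 1.6e-04) and 0.93 (adjusted p = 8.0e-06). Mcam, known from pericytes and stromal progenitors, rose with thrombin by 0.65 on the log2 scale (adjusted p = 0.0092). With PD03 against thrombin, the lipid-anchored Ntm was lower (20.1 ± 0.865 CPM and 7.87 ± 1.10 CPM, log2 fold change -1.35, adjusted p = 2.1e-14), and the junctional molecule Jam2 was higher (log2 fold change 1.11, adjusted p = 0.0032). Neither was called with thrombin, and the control group averaged 18.9 CPM for Ntm and 1.07 CPM for Jam2. Both were called with PD03 against control, with log2 fold changes of -1.26 for Ntm and 0.98 for Jam2.

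Partners and cutters of the adhesion molecules made up a list with 14 tested genes. With thrombin 1 was called lower (7.14%, beside 8.06% of all tested genes called in either direction). With PD03 against thrombin 2 were called higher and 2 lower (28.6%, beside 15.9% of all). Itga4, which pairs with Itgb1 as the receptor of Vcam1, averaged 2.04 ± 0.305 CPM with thrombin alone and 0.797 ± 0.192 CPM with added PD03 (a log2 fold change of -1.34, SE 0.31, adjusted p = 4.4e-04). Itga9, another receptor chain for Vcam1, was at 2.02 ± 0.311 CPM and 3.91 ± 0.440 CPM in these groups (a log2 fold change of 0.94, SE 0.24, adjusted p = 0.0011). Neither receptor chain was called with thrombin, and the control group averaged 2.34 CPM for Itga4 and 1.28 CPM for Itga9. Both were called with PD03 against control, with log2 fold changes of -1.53 for Itga4 and 1.62 for Itga9. Adam15, a membrane-bound metalloproteinase, had log2 fold changes of -0.59 with thrombin (adjusted p = 4.9e-11) and 0.93 with PD03 against thrombin (adjusted p = 8.5e-18). Of 8 transcription factors of the Snail, Twist, Zeb and Tcf families, known as regulators of cadherins, Snai2 was called lower with thrombin (23.2 ± 1.64 CPM to 14.6 ± 1.26 CPM, log2 fold change -0.67, adjusted p = 8.6e-08). With PD03 against thrombin their log2 fold changes ran from -0.31 to 0.57, inside the fold threshold, with Snai2 at 0.57 (adjusted p = 1.2e-06).

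**Figure D4:**
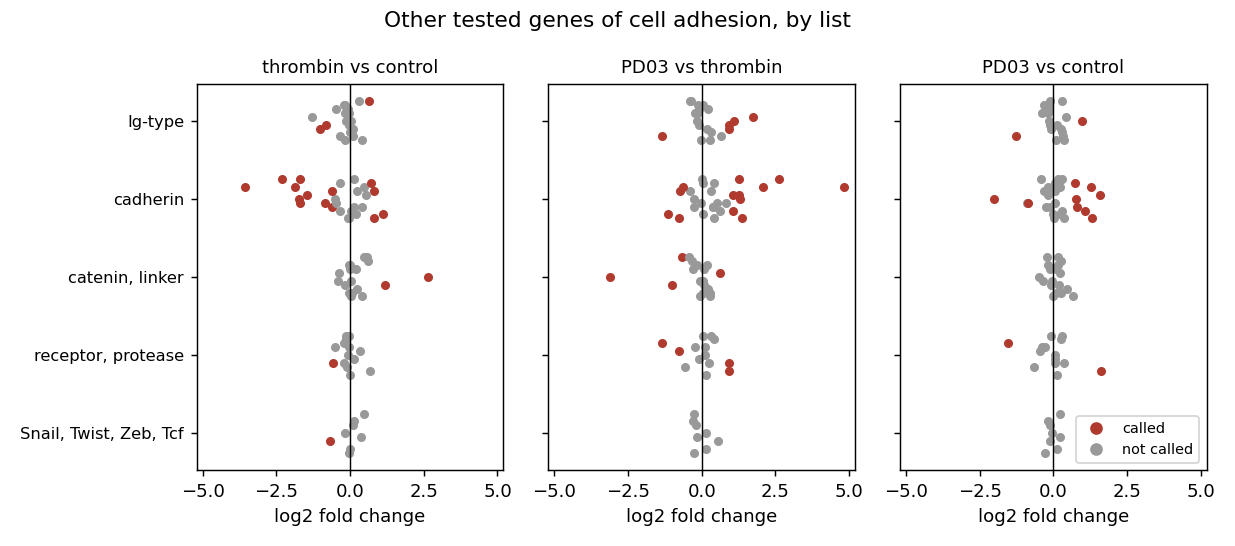
Log2 fold changes (horizontal axes) of 88 other tested adhesion genes in 5 lists for the 3 comparisons. Each point is a gene, red where called, and its height within a list has no meaning. The cadherin list spreads over -3.55 to 1.13 in the first panel and -1.13 to 4.82 in the PD03 against thrombin panel.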

How the data were processed

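RNA sequencing counts of 9 libraries were used, 3 each of the control, thrombin and PD03 groups as the sample titles name them. Per the paper, the authors trimmed reads with fastp, aligned them with HISAT2 and counted them with featureCounts on Rnor_6.0, whereas the submitters' processing notes name HTSeq 0.13.5 and mRatBN7.2. No source used here gives the annotation release or the strand setting. The authors deposited a raw count and an FPKM value per gene and library. Counts gave the tests and CPM levels, and the deposited FPKM gave comparisons between genes and 2 alternatives. FPKM is scaled by library and not by TMM. 

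Genes were kept by filterByExpr (minimum count 10), scaled by TMM and fitted in 1 model of all 9 libraries with edgeR 4.0.16 (R 4.3.3), with Benjamini-Hochberg adjustment. The procedure was tested on simulated data. Standard errors came from the F statistic and intervals are 95%. Alternatives used DESeq2 1.42.0, limma 3.58.1, other scalings, filters and fold thresholds, and left out each library in turn. No pair of libraries in a group agreed within counting noise, as 1 library deposited under 2 names would, so each counted as 1 replicate. A fit of libraries 2 and 3 of each group was added after seeing the data. No pairing of the libraries by replicate number was seen, which does not exclude it. Promoters came from RefSeq (GRCr8) by symbol. In the RefSeq table, other genes overlap Cdh4 (2), Cdh11 (1) and Cdh13 (4), and none overlap the rest. No symbol of these is in the count table, but 2048 genes there carry no symbol and could not be matched. 

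The 9 genes, the lists and the rule for named genes were chosen with earlier results of these data known. The rule names the 9 genes, the up to 3 called genes with the largest change in each of 5 lists for thrombin against control and PD03 against thrombin (a higher group averaging 1 CPM or more, no overlap of libraries), and, for each tested gene, the gene with the nearest pattern. The ratios between genes were not part of this rule. Figures were drawn with matplotlib 3.10.9.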

Additional observations from a re-analysis of the deposited data

How the results depend on the processing

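Over 24 alternatives, 544 of 570 fold changes of the 8 genes kept their direction and their call, or the lack of one. Of the others, 7 lost the call, 14 gained one and 5 changed sign. An alternative with its own fold threshold was judged by that threshold. The changes of sign were small values that were not called: Icam1 in PD03 against control, at -0.023 with library totals and -0.022 from FPKM with 1 or 0.1 added, and Cdh15 in the same comparison, at 0.35 without Control replicate 2 and 0.38 without PD03 replicate 3 (range -0.57 to 0.38 over the libraries left out in turn). Libraries 2 and 3 of each group alone, an alternative chosen after seeing the data, called 1038, 2070 and 1198 genes in all and 20, 23 and 11 other adhesion genes in the 3 comparisons, and left Cdh15 untested. The fold threshold moved the counts most, by its own construction. With no fold threshold, thrombin against control called 4 of the 8 genes lower, 44 other adhesion genes and 3808 genes in all. PD03 against thrombin called 1 lower, 55 and 6608, and PD03 against control called 5 higher and 1 lower, 42 and 5289. With a log2 threshold of 1, thrombin called 0 of the 8 higher (Ncam1 was lost), 11 other adhesion genes and 505 in all, PD03 against thrombin called 1 higher (Cdh13), 15 and 935, and PD03 against control called 8 and 519. With edgeR's glmTreat against 0.58, thrombin called 0 of the 8 higher (adjusted p = 0.22 for Ncam1), 9 other adhesion genes and 460 in all, PD03 against thrombin 12 and 1051, and PD03 against control 6 and 499. With a mean count of at least 50, a filter that left 11030 genes to test, PD03 against thrombin called 12 other adhesion genes and 1515 in all. PD03 against control called 3 and 817. Low genes are not tested there, so fewer calls do not mean lost ones among the genes kept. From FPKM with 1 added, which shrinks the changes of low genes, the counts of other adhesion genes and of all genes were 8 and 543, 10 and 1254, and 1 and 676 in the 3 comparisons, and Vcam1 was at 0.54 with PD03 against thrombin. Vcam1 was called lower in PD03 against control, 1 gene where there was otherwise no such call among the 8, with library totals, from FPKM with 0.1 added and without PD03 replicate 1. Over the libraries left out in turn that count was 0 to 1, and no other count of the 8 genes moved.

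No pairing of the libraries by the replicate numbers of the titles was seen, which does not exclude it. Deviations of libraries with the same number correlated at -0.041 to 0.069 (9 pairs), and 3 of 9 libraries correlated best with their own number. With the replicate number as a block, the 3 comparisons called 1067, 2103 and 1187 genes in all, and no call among the 8 genes changed. Depth limits Cdh15, whose intervals reach beyond the fold threshold on both sides in PD03 against control, and Cdh4, which could not be tested.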

Other observations

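The pattern of each tested gene over the 9 libraries was compared with 12368 other tested genes of at least 1 CPM, as the Euclidean distance between log2 CPM values centred on each gene's mean. The nearest gene to Vcam1 was Igfbp4, at a distance of 0.32, with means of 366, 160 and 274 CPM in the control, thrombin and PD03 groups. Postn was nearest to Ncam1 (distance 0.17, means of 124, 211 and 167 CPM). Glb1l was nearest to Alcam (0.17), Dnmt3a to Cdh2 (0.15), Palldl1 to Cdh11 (0.079), Cnnm2 to Cdh13 (0.22) and Gpr3 to Cdh15 (1.24), while the gene nearest to Icam1 (0.11) carries no symbol. With 3 groups, many genes share a pattern, and the distance is a description of these libraries.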
